A study of Mus musculus with 4 samples.

Results

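The genes described here encode 34 subunits of respiratory complexes I, II and III, which pass electrons along the inner mitochondrial membrane. There were 24 listed genes of complex I, 4 of complex II and 6 of complex III. They were taken by name, and their transcripts were found among assembled transcripts that carry no gene names, by matching runs of exon and intron lengths to a mouse annotation. Of the 34 genes, 33 were named, among 12872 genes named in all, and 31 had a spliced transcript in every library.

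Complex I, the NADH dehydrogenase, takes electrons from NADH, and complex II, the succinate dehydrogenase of the citric acid cycle, takes them from succinate. Both hand them to ubiquinone, and complex III, the cytochrome bc1 complex, passes them from ubiquinol to cytochrome c. Complexes I and III pump protons as they do so, which drives ATP synthesis, and complex II does not. All the listed subunits are encoded in the nucleus, and working muscle fibres are rich in mitochondria.

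The cells were C2C12, a mouse skeletal myoblast line labelled as strain C57BL/6, whose cells leave the cell cycle and fuse into multinucleate myotubes once serum is withdrawn. They were plated in DMEM with 20% fetal bovine serum and switched at confluence to a low serum medium. There were 4 libraries of polyadenylated RNA, sequenced as paired ends of 76 bases, 1 at each time point: growth, during exponential growth 24 h before the switch, and then 60 h, 120 h and 168 h after it. The files imply 28513976, 48228887, 24488681 and 43845262 fragments in that order, so the 120 h library was the shallowest. Wherever 4 values follow each other below they run over this time course, with growth first and 168 h last.

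Levels are in FPKM (fragments per kilobase of a transcript, relative to the size of the library), so genes can be set side by side. Each ± is the distance to the deposited confidence limit, which covers counting error and the division of fragments among transcripts but no variation between cultures. With no replicates, every difference is between 2 libraries and has no p-value. A gene rose or fell here under a size rule: confidence intervals apart, 1 FPKM or more in the higher library, and a 2-fold or larger difference of FPKM + 1. Ratios are on the log2 scale of FPKM + 1, which understates differences of low genes. The main value sums the FPKM of a gene's transcripts. A second value divides the fragments of a gene's transcripts in a library by the union of the gene's exons in all 4 libraries. That length is the same in every library. Fragments in stretches not assembled in a library are not counted, so this value still falls where less of a gene was assembled.

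The cells matched their label. The summed level of 6 markers of differentiated muscle was 491, 8574, 12250 and 11990 FPKM over the time course. Acta1 held 18.4, 5150, 7931 and 7219 FPKM of it, and Des held 452 FPKM of the growth value. Tnnt3 was not assembled in growth or at 120 h and was summed as 0. The summed level of 6 markers of dividing cells was 808, 165, 104 and 52.2 FPKM. Markers of adipocytes, osteoblasts, and macrophages with endothelial cells summed to at most 44.9, 23.4 and 15.3 FPKM in any library, with 3 of 6, 2 of 5 and 4 of 6 genes named. The part of the muscle and cell cycle genes' course in the members' values was not tested. Since the RNA is from whole cultures, a change in the share of fused cells and a change of RNA per cell cannot be told apart in any value below.

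The 31 members spliced in every library were well expressed, and their median was 126, 132.5, 146 and 146 FPKM over the time course. The medians of all named genes were 11.8, 8.95, 11.5 and 9.33 FPKM. Every member exceeded that median in growth and at 60 h, and all but Ndufab1 did so at 120 h and 168 h. Complex III had the highest median of the 3 complexes in all 4 libraries. That median was 270.1, 272, 356 and 448 FPKM over 5 genes, beside 116, 126, 143 and 136 FPKM over 22 genes of complex I and 154, 140.3, 163.5 and 166 FPKM over the 4 genes of complex II.

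**Figure D1:**
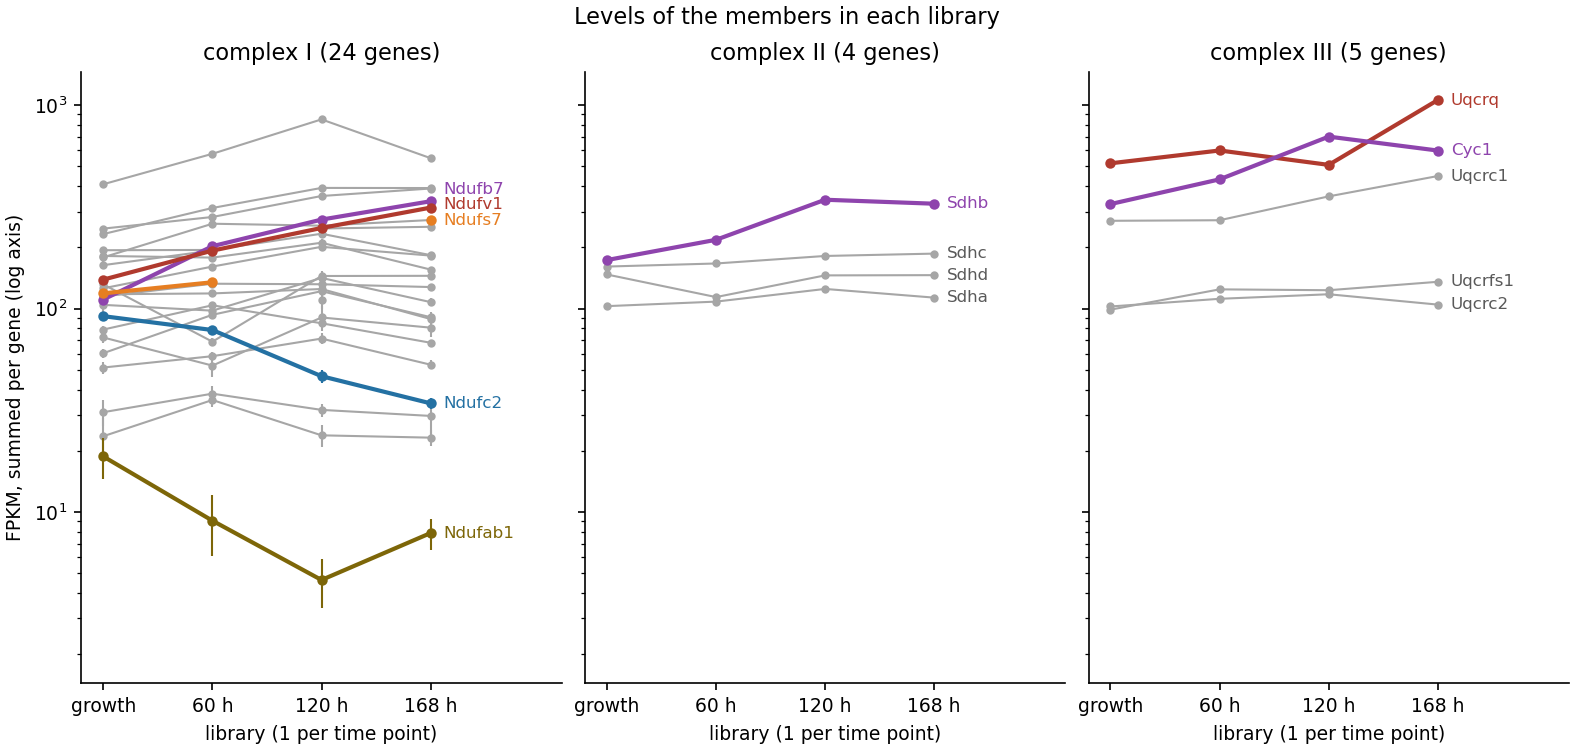
Level of each named member, in FPKM summed over its transcripts (log axis), in the 4 libraries, 1 per time point, with error bars to the deposited confidence limit. Points are drawn only where a spliced transcript was assembled, so Ndufs7 has no point at 120 h. Ndufv1 climbs to 314 FPKM at 168 h, Ndufc2 drops to 34.2 FPKM, and Ndufab1 lies lowest in every library.

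The comparison of 168 h with growth spans the whole course from dividing myoblasts to the latest myotubes. Of 32 members spliced in both libraries, 4 rose (Ndufv1, Ndufs7, Ndufb7 and Uqcrq) and 2 fell (Ndufc2 and Ndufab1). Most of the summed level of Ndufab1 in growth was a single-exon piece, and its spliced level did not fall. Among all 10291 named genes with a spliced transcript in both, 11.4% rose and 18.9% fell, so the share of members that rose, 4 of 32, was near that of all genes, and the share that fell, 2 of 32, was below it. The middle of the list stood higher than that of all genes. The members' median log2 ratio was 0.18, with 23 of 32 above 0, and that of all genes was -0.19. Over the union of exons the medians were 0.30 for the members and -0.24 for all genes, and 3 members rose (Ndufv1, Ndufs7 and Uqcrq) and 1 fell (Ndufc2), beside 12.7% and 21% of all genes. At a 1.5-fold threshold, 11 members were higher at 168 h and 2 lower, beside 19.7% and 32.3% of all genes. Over the union of exons 10 and 2 passed that threshold, beside 21.1% and 35.2%, and 8 and 2 passed it by both measures. A further value, through the introns, takes the median, over introns shared by the libraries, of the summed FPKM of transcripts spanning each. Through the introns 5 members rose and 1 fell, beside 11.9% and 18.6%. The rise not called by the sum was Ndufs3, a gene assembled in broken pieces, with 13.8 FPKM in growth and 38.0 FPKM at 168 h.

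Ndufv1, the flavoprotein of complex I that oxidises NADH, was higher in each library than in the one before. It had 139 ± 3.53, 193 ± 10.3, 249 ± 5.17 and 314 ± 16.8 FPKM over the time course, and no neighbouring intervals overlapped. It was 2.25-fold higher at 168 h than in growth, a log2 ratio of 1.17 ± 0.0854, and 2.20-fold over the union of exons. The gene lay on chromosome 19 from 4007499 to 4012715 on the minus strand, in the coordinates of the files. All 9 annotated introns were assembled in every library, and the transcripts were 1563, 1540, 1525 and 1540 bases long. The deeper libraries, at 60 h and 168 h, also held a chain that differs at its 5' end, with 12.6% and 16.5% of the level.

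Ndufs7, a subunit that carries the last iron-sulfur cluster before ubiquinone, rose at 168 h but had no spliced transcript at 120 h. It had 119 ± 4.21 FPKM in growth, 135 ± 3.33 at 60 h and 272 ± 5.28 at 168 h. The log2 ratio of 168 h to growth was 1.19 ± 0.0579, and 1.11 over the union of exons. At 120 h only a single-exon piece of 75 bases, with 2.18 FPKM, lay in its exons (chromosome 10, 79712067 to 79719654, plus strand). That library therefore gives no level for this gene, and the drop there was not counted as a change.

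Ndufc2, a small subunit of the proximal membrane arm, went the other way and was lower in each library than in the one before. It had 91.8 ± 4.51, 78.5 ± 3.21, 46.5 ± 3.53 and 34.2 ± 2.25 FPKM, with no overlap between intervals. Its log2 ratio of 168 h to growth was -1.40 ± 0.116, and -1.43 over the union of exons. The assembled transcripts differed little, at 634, 630, 611 and 619 bases, and no word of 50 bases in its annotated transcripts occurs in another gene. It lay on chromosome 7 from 104548558 to 104556309 on the plus strand.

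The promoters of these 3 genes are shown because the genes rose or fell by both measures. Uqcrq also did so and has no entry among the promoters used here. Beside them stand those of Ndufb8 and Uqcrc1, subunits of complexes I and III that passed 1.5-fold by both measures and hold the core letters of the NRF1 motif. Each holds 250 bases before and 50 after the RefSeq start in build GRCm38.p6, at chr19:4012706-4013005 (minus strand) for Ndufv1, chr10:80249199-80249498 (plus) for Ndufs7, chr7:97399753-97400052 (plus) for Ndufc2, chr19:44555393-44555692 (minus) for Ndufb8 and chr9:108936398-108936697 (plus) for Uqcrc1. Capitals mark matches, on either strand, to 5 motifs: GCGCATG for the core of the NRF1 motif, CCGGAAG for the ETS family, AAGATGG for YY1, AAGGTCA for the estrogen-related receptors and GGGCGG for Sp1.
Ndufv1: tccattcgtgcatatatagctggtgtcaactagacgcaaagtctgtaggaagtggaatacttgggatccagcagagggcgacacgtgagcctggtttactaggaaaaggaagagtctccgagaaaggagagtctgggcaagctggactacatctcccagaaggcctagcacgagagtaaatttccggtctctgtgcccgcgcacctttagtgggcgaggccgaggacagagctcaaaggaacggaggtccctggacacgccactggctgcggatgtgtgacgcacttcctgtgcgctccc
Ndufs7: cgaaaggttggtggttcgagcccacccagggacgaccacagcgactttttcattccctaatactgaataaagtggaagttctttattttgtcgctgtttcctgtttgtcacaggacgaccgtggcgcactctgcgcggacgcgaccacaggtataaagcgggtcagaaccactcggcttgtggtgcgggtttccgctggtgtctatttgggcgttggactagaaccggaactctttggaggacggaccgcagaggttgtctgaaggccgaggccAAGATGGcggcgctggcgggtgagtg
Ndufc2: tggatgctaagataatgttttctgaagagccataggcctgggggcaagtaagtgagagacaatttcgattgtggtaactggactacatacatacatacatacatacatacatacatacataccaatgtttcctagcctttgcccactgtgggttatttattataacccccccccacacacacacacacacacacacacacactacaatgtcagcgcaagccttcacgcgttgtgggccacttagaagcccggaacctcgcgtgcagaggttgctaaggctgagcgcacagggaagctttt
Ndufb8: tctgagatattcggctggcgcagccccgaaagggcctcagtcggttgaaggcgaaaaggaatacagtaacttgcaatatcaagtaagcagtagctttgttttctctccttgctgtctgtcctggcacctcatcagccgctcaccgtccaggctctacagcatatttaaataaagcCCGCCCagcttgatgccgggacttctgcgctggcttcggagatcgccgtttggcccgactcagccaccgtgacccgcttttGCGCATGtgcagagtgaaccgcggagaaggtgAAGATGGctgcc
Uqcrc1: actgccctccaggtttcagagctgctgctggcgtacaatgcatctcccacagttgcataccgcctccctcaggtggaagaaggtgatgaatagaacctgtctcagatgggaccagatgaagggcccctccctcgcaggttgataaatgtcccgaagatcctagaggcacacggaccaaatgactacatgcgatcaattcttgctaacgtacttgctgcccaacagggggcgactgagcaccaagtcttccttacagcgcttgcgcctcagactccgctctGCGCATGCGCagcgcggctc

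Ndufv1 and Ndufc2, which moved in opposite directions, held no match to the 5 motifs in this window. Ndufs7 held the YY1 letters. Ndufb8 held the YY1, NRF1 and Sp1 letters, and in Uqcrc1 2 NRF1 matches on opposite strands overlap. Of the 26 members with an entry, 4 held the NRF1 letters (15.4%), against 7.14% of 10058 genes named in the libraries and 4.04% of all 27025 promoters. For YY1 the count was 6 (23.1%), against 7.37% and 6.48%. The ETS motif stood in 5 members (19.2%), against 17.6% and 9.12%, and AAGGTCA in 1 (3.85%), against 3.03% and 4.66%. The Sp1 letters stood in 10 (38.5%), against 63.8% and 35.9%. In Ndufa9, Ndufb8, Ndufc1, Ndufs4, Ndufs6 and Ndufs7, the YY1 letters began 23 to 39 bases after the start, whereas 41.3% of the named genes with that motif had it after the start. The YY1 letters contain ATG, the start codon. The NRF1 letters stood in Ndufa8, Ndufb8, Sdhb and Uqcrc1, of which Ndufa8 had 183 FPKM at 168 h, against 194 FPKM in growth, and Uqcrc1 had 448 FPKM at 168 h, against 270.1 FPKM in growth.

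Complex I is built from an N module that oxidises NADH, a Q module that reduces ubiquinone, and a membrane arm with proximal and distal parts. At 168 h against growth, log2 ratios were above 0 by both measures in the 4 Q module members spliced in both libraries and in 5 of 6 members of the distal arm, while the proximal arm was mixed. The summed intervals were apart in 3 of those 4 and 4 of those 5, and overlapped in Ndufs3 and Ndufb3. The sum of Ndufs3 adds separate pieces of the gene. The median log2 ratio was 0.57 for the Q module (0.57 over the union of exons), 0.54 for the distal arm (0.71) and -0.02 for the proximal arm (0.19). The N module gave 0.37 summed and 0.060 over the union of exons, so its median depended on the measure. These are descriptions of 4 to 6 genes each, beside the all-gene medians of -0.19 and -0.24.

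In the N module the members parted. Beside Ndufv1, Ndufa2 was higher at 168 h, with 163.5, 193, 247.5 and 252 FPKM over the time course, and a log2 ratio of 0.62 by either measure. Ndufv2, which carries an iron-sulfur cluster, had 118, 119, 125 and 88.9 FPKM and a log2 ratio of 168 h to growth of -0.40. Ndufs1, the largest subunit of the module, stayed between 29.7 and 38.2 FPKM with overlapping intervals in growth and at 168 h, its log2 ratio being -0.06 ± 0.37. Thus the flavoprotein and its partner Ndufv2 were at 314 and 88.9 FPKM at 168 h, against 139 and 118 FPKM in growth.

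Ndufs4, an accessory subunit whose loss causes encephalopathy in mice, had 60.3, 93.2, 122 and 90.7 FPKM, and Ndufs6 had 72.1, 52.5, 90.4 and 80.6 FPKM. Both were highest at 120 h, though the Ndufs6 intervals at 120 h and 168 h overlapped. For Ndufs4 the assembled transcript was 920 bases in growth and 656 at 168 h, and the log2 ratio of 0.58 was 0.088 over the union of exons. Ndufs6 passed 1.5-fold by both measures at 120 h against 60 h, with 90.4 ± 12.9 FPKM at 120 h, against 52.5 ± 6.10 FPKM at 60 h.

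In the Q module, Ndufs8, another carrier of iron-sulfur clusters, had 179, 261, 256 and 272.5 FPKM, and most of its difference lay between growth and 60 h. Ndufa9 had 126, 161, 201 and 182 FPKM. Ndufs3, a core subunit, was assembled in broken pieces, with 3, 4, 5 and 5 of its 6 annotated introns, and 16.1% of its words of 50 bases occur in other genes. Its summed value was 104, 97.7, 141.5 and 108 FPKM. That sum adds pieces from separate parts of the gene, so it is not the level of a transcript. The value over the union of exons was 24.5, 32.3, 46.8 and 38.8 FPKM. The log2 ratios of 168 h to growth were 0.04 summed and 0.64 over the union of exons. Its direction at 60 h differed between the measures, so no course is given for it.

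Ndufa5 could not be followed. It had 109.8 ± 10.03 FPKM at 120 h, against 113 ± 5.70 FPKM in growth, with 4 introns in each, and no transcript carried its name at 60 h or 168 h. At 120 h a chain that skips its exon of 117 bases held 14.5% of the level. A value of 0 in the 2 deeper libraries, beside about equal levels in the 2 shallower ones, was treated as a missing assembly and not as a level.

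In the distal arm, Ndufb8 and Ndufb10 climbed to 120 h or 168 h by either measure. Ndufb8 had 247, 282, 358 and 389 FPKM over the time course, and its intervals were apart at each step. Ndufb10 had 232.5, 312, 392 and 391 FPKM, equal at the last 2 times within the intervals. Their log2 ratios of 168 h to growth were 0.65 and 0.75 summed, and 0.67 and 0.91 over the union of exons.

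Ndufb7 had the largest summed ratio of all members between 168 h and growth, and its assembled length moved with it. It had 111 ± 3.95, 203 ± 5.35, 274 ± 8.67 and 337 ± 7.44 FPKM, a log2 ratio of 1.60 ± 0.0601 for 168 h against growth. Its transcript was 994 bases long in growth and 587, 595 and 555 bases later, because the last exon was 632 bases in growth and 225, 223 and 193 bases later, where 194 are annotated. No marking of strand is described, so fragments of a neighbour on the opposite strand cannot be separated there. Over the union of exons the levels were 109.7, 118, 162 and 186 FPKM and the ratio 0.76, so the gene passed 1.5-fold and not 2-fold. How much the longer growth transcript took part in the summed difference was not tested beyond that value.

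Ndufb9 was the most abundant complex I member, with 408.5, 577, 851 and 549 FPKM. The peak at 120 h was 851 ± 14.0 FPKM, but the last exon was 252 bases there and 540 bases at 168 h, and over the union of exons the last 2 libraries had 515 and 466.5 FPKM. A further 15.6% of its words occur in 1 other gene, so its level is uncertain. Ndufb3, with 51.3 to 71.2 FPKM, and Ndufb5, with 67.9 to 104 FPKM, were highest at 120 h and 60 h and differed by less than 1.5-fold between 168 h and growth.

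In the proximal arm, Ndufa8 and Ndufa10 varied little, with 183 to 233 FPKM and 115 to 132.5 FPKM over the 4 libraries. Ndufc1 was low, at 23.6, 35.5, 23.8 and 23.2 FPKM. Ndufa1 had 131.5 ± 6.77, 68.7 ± 2.86, 145 ± 7.65 and 145 ± 5.10 FPKM, and rose at 120 h against 60 h by the sum. The 120 h sum includes a single-exon piece of 78 bases with 6.28 FPKM. The spliced transcript alone had 138 FPKM there and a log2 ratio of 0.999 to 60 h, just short of a rise. The 60 h transcript was 695 bases long, against 402, 499 and 509 bases in the other libraries, and over the union of exons the levels were 76.04, 68.7, 100 and 106 FPKM. By that measure the low value at 60 h was 0.905 of growth and the gene did not rise at 120 h.

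Ndufab1, the mitochondrial acyl carrier protein that sits at 2 sites of complex I, was the lowest member in every library. It had 18.8 ± 4.23, 9.07 ± 3.01, 4.63 ± 1.24 and 7.88 ± 1.40 FPKM, and fell at 168 h against growth with a log2 ratio of -1.15 ± 0.38. Only 2 of its 4 annotated introns were assembled in any library, 7.13% of its words occur in other genes, and through its introns the log2 ratio was -0.03. Its level is therefore that of a partial transcript. Ndufa4, listed with complex I but now placed in complex IV, had 181, 178, 211 and 155.5 FPKM.

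**Figure D2:**
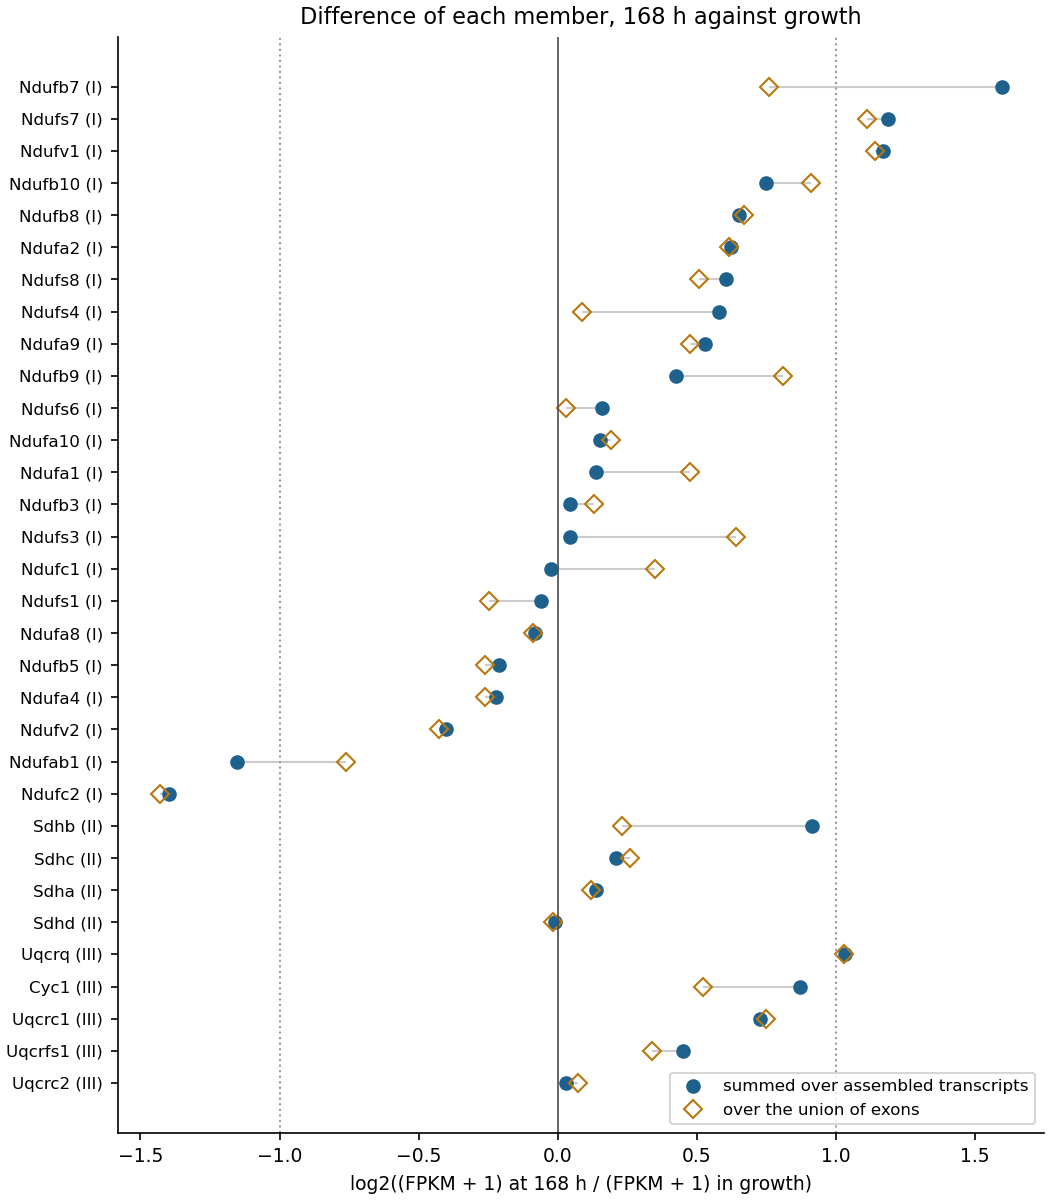
Log2 ratio of FPKM + 1 at 168 h to growth for the 32 members spliced in both libraries, by complex (in brackets), with circles for the sum over assembled transcripts, diamonds for the union of exons and dotted lines at 2-fold. Ndufs7, Ndufv1 and Uqcrq lie beyond 2-fold upwards and Ndufc2 downwards by both, while Ndufb7 and Sdhb have circles far to the right of their diamonds.

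The 4 subunits of complex II are Sdha, the flavoprotein that oxidises succinate, Sdhb, the iron-sulfur subunit, and the membrane anchors Sdhc and Sdhd. None rose or fell between any pair of libraries compared, by the sum or by the union of exons, and the median log2 ratio of 168 h to growth was 0.17 by either measure. Sdha had 103, 108, 125 and 113 FPKM over the time course. Sdhc had 161, 167, 181 and 186 FPKM, and Sdhd had 147, 114, 146 and 146 FPKM. The dip of Sdhd at 60 h was beyond the intervals, at 114 ± 2.63 FPKM against 147 ± 3.79 FPKM in growth, and was the largest difference from growth among these 3 genes.

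Sdhb stood out by the sum only. It had 173 ± 3.81, 218 ± 3.68, 343 ± 7.47 and 328 ± 12.8 FPKM, a log2 ratio of 0.92 ± 0.0644 for 168 h against growth. Its last exon was 912, 459, 175 and 175 bases long in that order, where 169 are annotated. Over the union of exons it had 162.5, 162, 192 and 191 FPKM and a ratio of 0.23, close to those of Sdha (0.12) and Sdhc (0.26). With libraries scaled by the median ratio its summed log2 ratio was 1.12, a rise, and with equal totals it was 0.905, which was not. At 168 h a chain that shifts 1 intron by 3 bases, to exons of 120 and 99 bases, held 14.7% of its level.

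In complex III all 5 named members had positive log2 ratios at 168 h against growth, the median being 0.73 summed and 0.52 over the union. Uqcrq, a small subunit near the ubiquinol site, rose. It had 518 ± 20.99, 599 ± 8.85, 509 ± 10.1 and 1060 ± 30.9 FPKM, a log2 ratio of 1.03 ± 0.072 for 168 h against growth by the sum and 1.03 over the union of exons. The course in between differed by measure. The summed value also rose at 168 h against 120 h, where the 120 h transcript was 823 bases and the 168 h one 480 bases, but over the union of exons the levels were 267, 418, 460.5 and 545 FPKM, with 1.18-fold at that step. Growth and 168 h also shared a chain with an added intron, which held 10.7% and 14.7% of the level.

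Uqcrc1 had 270.1 ± 4.95, 272 ± 3.71, 356 ± 6.08 and 448 ± 5.11 FPKM, so that it differed from growth only from 120 h on. The other core subunit, Uqcrc2, had 102, 112, 118 and 105 FPKM and a log2 ratio of 0.03 for 168 h against growth. The core pair was thus at 448 and 105 FPKM at 168 h, against 270.1 and 102 FPKM in growth. Uqcrfs1, the Rieske iron-sulfur protein, had 98.8, 124, 123 and 135 FPKM, with a log2 ratio of 0.45.

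Cyc1, the cytochrome c1 gene, had 326 ± 4.90, 432 ± 4.93, 700.3 ± 9.85 and 598 ± 6.05 FPKM. Its last exon was 1022, 611, 329 and 600 bases long, where 606 are annotated, so the highest value fell on the shortest exon. Over the union of exons it had 325, 335, 436 and 466 FPKM and the log2 ratio of 168 h to growth was 0.52, where the sum gave 0.87, or 1.08 and a rise with libraries scaled by the median ratio. Uqcrb, the sixth listed gene, was not named in any library, and 25.4% of its words of 50 bases occur in other genes.

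**Figure D3:**
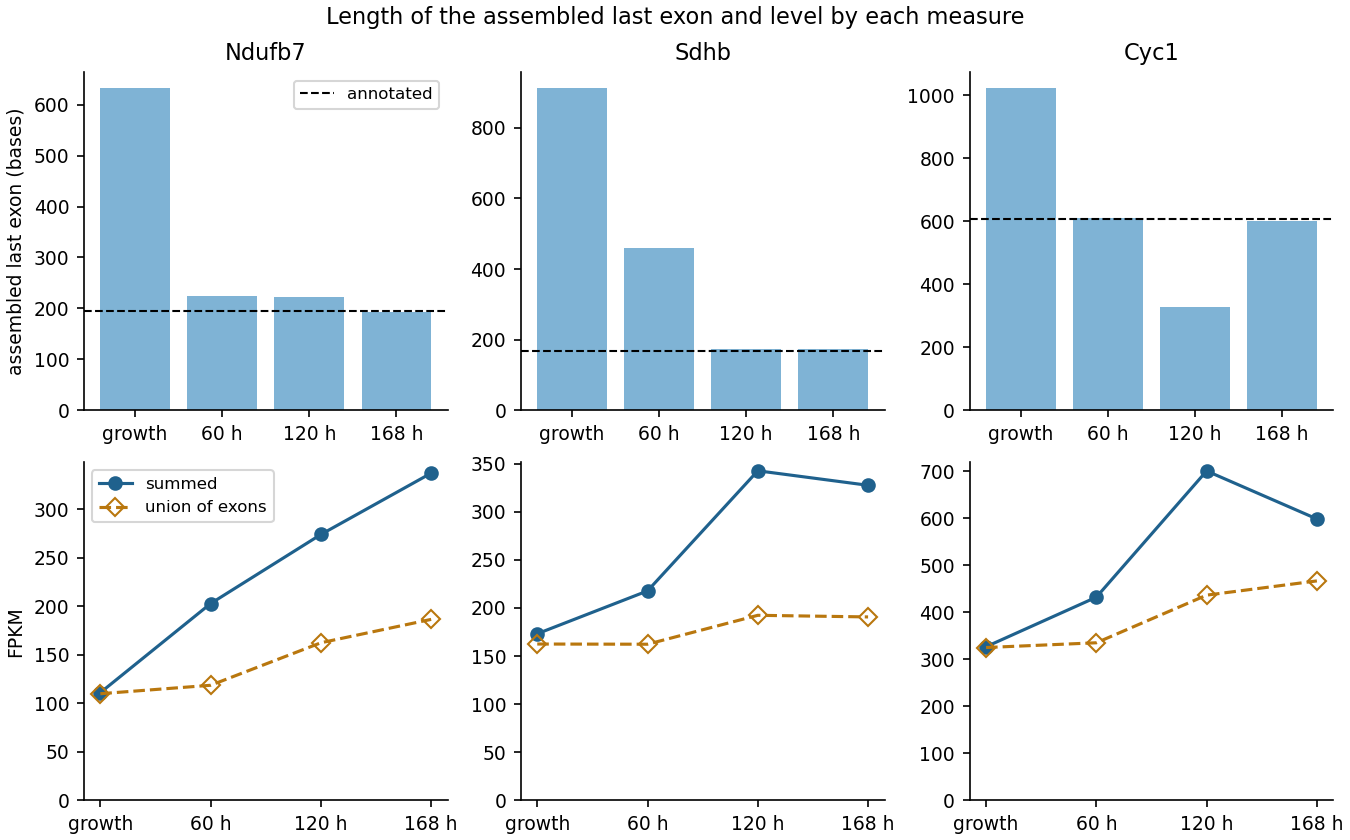
Length in bases of the assembled last exon (top, bars, with the annotated length dashed) and level in FPKM by the sum and by the union of exons (bottom) for Ndufb7, Sdhb and Cyc1 in the 4 libraries. The last exon is longest in growth for each, at 632, 912 and 1022 bases, and the union of exons shows a smaller difference between 168 h and growth than the sum.

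Step by step, the members moved little between any consecutive pair of libraries. At 60 h against growth 0 of 32 members rose and 0 fell, where 6.98% of 10452 genes rose and 16.1% fell. Their median log2 ratio was 0.20, against -0.26 for all genes, and 28 of 32 lay above the all-gene median. At 120 h against 60 h, 1 of 31 members rose (Ndufa1) and 0 fell, where 12% of genes rose and 1.71% fell, and the medians were 0.28 and 0.17. At 168 h against 120 h, 1 of 31 rose (Uqcrq) and 0 fell, where 2.13% of genes rose and 8.96% fell, and the medians were -0.07 and -0.12. Neither of those 2 calls held over the union of exons, where 0 members rose or fell at any of the 3 steps. By that measure 9.45% of genes rose and 11.1% fell at the first step, 1.25% and 2.93% at the second, and 1.93% and 1.84% at the last of the 3.

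At 1.5-fold, 2 members were higher (Ndufb7 and Ndufs4) and 2 lower (Ndufa1 and Ndufab1) at 60 h than in growth, beside 13.3% and 31.4% of genes. By the union of exons the 2 higher members were others, Ndufc1 (1.69-fold) and Uqcrq (1.56-fold), and 0 were lower, beside 17.1% and 25.1%. At 120 h against 60 h, 4 were higher (Ndufa1, Ndufs6, Sdhb and Cyc1) and 2 lower (Ndufab1 and Ndufc2), beside 23.4% and 5.92%. By the union of exons 1 was higher (Ndufs6) and 1 lower (Ndufc2) at that step, beside 4.29% and 13.1%. At 168 h against 120 h, 2 were higher (Ndufab1 and Uqcrq) and 1 lower (Ndufb9), beside 6.45% and 19.9%, and by the union of exons 0 were higher and 0 lower, beside 7% and 5.77%. Ndufc2 and Ndufs6 were thus the members whose change at a single step passed 1.5-fold by both measures. The 1.5-fold threshold was not applied with the libraries rescaled.

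Over the union of exons the members' medians for the 3 steps were 0.16, 0.24 and -0.03, and those of all genes -0.13, -0.13 and 0.04. The all-gene medians of the second step (0.17 summed) and of the third (-0.12 summed) changed sign with the measure, while the members' did not. The members' median thus stood above that of all genes at the first 2 steps and at 168 h against growth by both measures, and at 168 h against 120 h above it by the sum and below it by the union of exons. The all-gene median moves with the scaling of the libraries. Scaled by the median ratio, it was -0.05, -0.001 and 0.01 for the 3 steps, and the members' 0.44, 0.098 and 0.086.

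Among the 31 members spliced everywhere, growth was the lowest library for 18 and 120 h the highest for 14, by the sum. By the union of exons growth was the lowest for 20 and 168 h the highest for 12. The ratio of a member's highest to its lowest library had a median of 1.54, and it was under 1.5 in 12 members and at least 2 in 9. By the union of exons it was at least 2 in 4 members, Ndufab1, Ndufc2, Ndufv1 and Uqcrq.

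**Figure D4:**
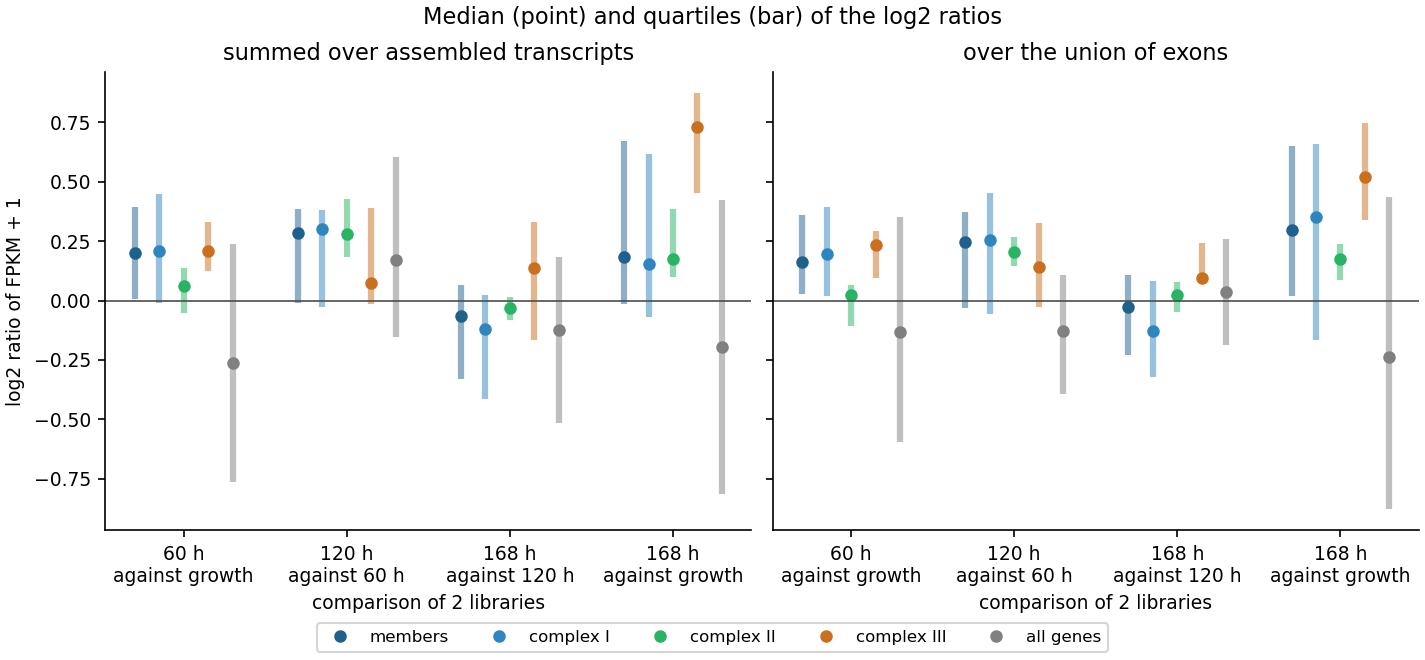
Median (point) and quartiles (bar) of the log2 ratio of FPKM + 1 for the members, each complex and all named genes in the 4 comparisons, by the sum (left) and by the union of exons (right). The members lie above all genes at 60 h against growth and at 168 h against growth in both panels, and complex III is highest at 168 h against growth.

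The subunits of complexes I and III left off the list gave further values from the same libraries. Of 13 other complex I genes, 10 were spliced in growth and at 168 h. Of these 2 rose and 0 fell, beside 11.4% and 18.9% of all genes. Their median log2 ratio was 0.43, and 0.71 over the union of exons. Ndufv3, another subunit near the flavoprotein, had 98.6, 160, 291 and 270 FPKM, and Ndufa13 had 78.5, 99.1, 376 and 169 FPKM. Both rose at 168 h against growth by both measures. Ndufa12 had 22.1 FPKM at 168 h, against 37.2 FPKM in growth, which was a fall over the union of exons only (log2 ratios of -0.73 summed and -1.50). Of 4 genes on the list of other complex III subunits and cytochrome c, 3 were measured and 2 rose, beside 11.4% of all genes. Uqcr10 had 174, 247, 429 and 456 FPKM, and Uqcr11 had 49.9, 77.4, 144 and 132.5 FPKM, the second not a rise over the union of exons. Uqcrh, the hinge protein, had 153, 75, 275 and 158 FPKM.

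Genes that assemble the complexes moved in both directions. Of 15 complex I assembly factors, 1 rose and 2 fell at 168 h against growth, beside 11.4% and 18.9% of all genes. Their median log2 ratio was -0.18, near the -0.19 of all genes. Ndufaf3 had 17.0 FPKM at 168 h, against 3.85 FPKM in growth, Ndufaf4 had 3.85 FPKM, against 12.5 FPKM, and Ndufaf2 had 12.1 FPKM, against 34.5 FPKM. Of 8 measured assembly factors of complexes II and III, 0 rose and 0 fell, beside the same shares of all genes. Their median log2 ratio was -0.14. Uqcc3 had 40.1 FPKM at 168 h, against 22.8 FPKM in growth, and Uqcc1 had 23.7 FPKM, against 39.5 FPKM. The log2 ratio of Uqcc1 was -0.71 summed and 0.78 over the union of exons, so its direction depended on the measure.

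Genes that make ubiquinone, the carrier that all 3 complexes share, were spread widely. Of 11 spliced in both libraries, 4 rose and 1 fell at 168 h against growth, by either measure, beside 11.4% and 18.9% of all genes by the sum. Their median log2 ratio was 0.15, and 0.24 over the union of exons. Coq8a, a kinase-like protein of the pathway, had 1.60, 37.5, 88.9 and 145 FPKM, Coq9 had 30.6, 72.0, 96.1 and 113 FPKM, and Coq10a, a ubiquinone-binding protein, had 11.8, 22.6, 69.1 and 55.2 FPKM. Each of these 3 rose at 168 h against growth by both measures. The gene that fell, named after its values were seen, was Coq7, a hydroxylase of the pathway, with 12.4 FPKM at 168 h, against 42.1 FPKM in growth.

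The later complexes of the chain are given for comparison. Of 11 complex IV genes spliced in both libraries, 4 rose and 0 fell by the sum and 2 rose and 0 fell over the union of exons, beside 11.4% and 12.7% of all genes that rose. The median log2 ratio was 0.80 (0.40 over the union of exons), and the muscle isoform Cox6a2 had 645 FPKM at 168 h, against 1.70 FPKM in growth. Of 13 complex V genes 1 rose and 0 fell by the sum, with a median of 0.20 (0.16), and 3 rose over the union of exons. Among 11 regulators of respiratory genes 0 rose and 1 fell at 168 h against growth by the sum, beside 11.4% and 18.9% of all genes. The gene that fell was Gabpa, the DNA-binding subunit of the ETS factor GABP, with 4.25 FPKM at 168 h, against 9.98 FPKM in growth. With the union of exons as the measure, Gabpa again fell, and 1 other regulator counted as a rise, beside 21% and 12.7% of all genes. It was Ppargc1a, named after its values were seen, with summed levels of 2.025 FPKM at 168 h and 1.01 FPKM in growth. The median log2 ratio of the regulators was 0.24 summed and -0.26 by the second measure, so its sign depended on the measure.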

How the data were processed

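Polyadenylated RNA of 4 C2C12 libraries was measured, 1 per time point. The authors deposited assembled transcripts with RPKM and confidence limits, per the file headers. The submitters' processing notes list TopHat 1.0.13 and Cufflinks 0.8.0 without saying what each did. The sources used here name no genome build, and strand was not marked as far as the labels' protocols say. The deposited RPKM are called FPKM here.

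In genes with 1 transcript the distance to a limit is 2 square roots of a fragment count, which gave the library sizes. Names came from GENCODE M21 through runs of intron and exon lengths (121754 of 137519 introns), then by the length of a single intron beside named ones (5331, with a chance rate of 3.08%). A single-exon transcript counted to a gene when at least 50% of it lay in that gene's exons. Errors were added in quadrature. Copies were sought as words of 50 bases shared with other annotated genes. Only genes with a spliced transcript in both libraries were compared. Named beyond the members were up to 3 genes of each other list with at least 5 FPKM and the largest ratio of 168 h to growth.

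The members and lists were chosen with earlier results of these data known. The script was tested on simulated data with whole annotated transcripts and 1 fixed length per gene. That test does not cover assembled lengths that vary, broken pieces or missing assemblies. Alternatives changed the pseudocount of 1, the minimum of 1 FPKM, the 2-fold threshold, the scaling, the gene measure and the treatment of unassembled genes. Promoters were RefSeq's (26 of 34 members matched, 1 entry per gene). Python 3.11.15, numpy 2.4.6, pandas 2.3.3 and matplotlib 3.10.9 were used.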

Additional observations from a re-analysis of the deposited data

How the results depend on the processing

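No pseudocount, minimum or treatment of single-exon pieces moved the members' median by more than 0.02 (log2). No paired analysis was possible because there was 1 library per time point, and none was left out.

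Median log2 ratios moved with scaling. By the median ratio they were 0.437, 0.098, 0.086 (a change of sign) and 0.386 for the 3 steps in time order and for 168 h against growth, in place of 0.198, 0.283, -0.065 and 0.184. With equal totals the first 3 were 0.268, 0.089 and 0.051, the last again a change of sign. For 168 h against growth it was 0.298 with the union of exons in place of the sum and 0.318 with the introns. The value through the introns reuses the same transcript levels and equals the sum for most members, so it is not an independent check. The complex III median at 120 h against 60 h turned to -0.113 by the median ratio and -0.121 with equal totals, and that of complex I at 168 h against 120 h to 0.030 by the median ratio. The complex II median at that step, -0.03, was 0.025 by the union of exons, 0.12 when scaled by the median ratio and 0.085 with equal totals.

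Counts risen and fallen, in place of 0 and 0, were 2 and 2 at 1.5-fold for 60 h against growth. By the median ratio 1 rose, beside 1040 of 10446 genes. A further setting, a pseudocount of 0.1, gave 1 fallen, beside 2017 of 10452 genes. There was also 1 fallen with unassembled genes at 0, beside 1937 of 11570. For 120 h against 60 h, in place of 1 and 0, the counts were 4 and 2 at 1.5-fold. Over the union of exons 0 rose. They were 0 and 1 by the median ratio (942 and 306 of 10828 genes) and with equal totals (929 and 316 of 10822). With unassembled genes at 0 they were 2 and 1 (1510 and 596 of 11631). When pieces counted as assembled, 1 fell (237 of 11360). For 168 h against 120 h, in place of 1 and 0, the counts were 2 and 1 at 1.5-fold. Over the union of exons 0 rose. With unassembled genes at 0 they were 2 and 1 (631 and 1241 of 11612 genes). When pieces counted, 2 rose (279 of 11360). For 168 h against growth, in place of 4 and 2, the counts were 11 and 2 at 1.5-fold. By the median ratio they were 6 and 1 (Sdhb and Cyc1 added), beside 1483 and 1502 of 10294 genes. They were 3 and 1 by the union of exons and 5 and 1 with the introns (Ndufs3 added as a rise). With unassembled genes at 0 they were 4 and 3, beside 2071 and 2348 of 11696. The cause of these differences was not tested. Counting single-exon pieces, the members with all introns and the 1.5-fold union were added after seeing the data. Among the 25 members with all annotated introns in every library the median at 168 h against growth was 0.21. Of these, 3 rose and 1 fell, beside 11.4% and 18.9% of all genes. Depth limits low genes most: the median distance to the limit was 2.38% to 3.32% of a member's value and 9.88% to 13.7% of that of all genes.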
